A study of Nicotiana tabacum with 18 samples.

Results

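The 10 genes described here are those that the study's heat map of photosynthesis genes lists under the enzyme names FBP (7 genes), SBP (2 genes) and PRK (1 gene). They were taken by these names from the heat map, and all 10 were found among the 69500 genes of the deposited expression table. The study drew the heat map from genes that it had classed as up-regulated above both parents in the hybrid Va116×GDH94, using libraries that are also used here, so values of that hybrid against its parents describe how the genes were chosen and are no independent evidence. RNA was sequenced from leaves of field-grown tobacco (Nicotiana tabacum) at 45 days after transplanting, in 6 genotypes with 3 libraries each. The genotypes were the hybrid Va116×GDH94, its parents Va116 and GDH94, the hybrid K326×GDH88, and its parents K326 and GDH88. The labels give no transgene, mutation or treatment for any genotype. According to the study's methods, several plants and leaf positions of a plot were mixed into a sample. In such a bulk leaf sample, fewer cells of a type and less RNA per cell cannot be told apart.

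In the Calvin cycle, carbon fixed by Rubisco leaves the reduction steps as triose phosphate, and most of it is used to rebuild the CO2 acceptor, ribulose 1,5-bisphosphate. Fructose-1,6-bisphosphatase and sedoheptulose-1,7-bisphosphatase each remove a phosphate group in this regeneration phase, in steps that are close to irreversible, and phosphoribulokinase spends ATP on the last step, which makes ribulose 1,5-bisphosphate from ribulose 5-phosphate. In the chloroplast these enzymes are switched on in the light through thioredoxin, while a separate fructose-1,6-bisphosphatase in the cytosol serves sucrose synthesis. SBP and PRK are read here as the sedoheptulose bisphosphatase and phosphoribulokinase genes. The name FBP is less certain. The study's legend spells it out as a class I fructose-bisphosphate aldolase, while its supplementary sheets describe one of the 7 genes, Nitab4.5_0000032g0010, as a fructose-1,6-bisphosphatase. The other members carry no description in the sources used here, so it is not known which of the 7 FBP genes encode the chloroplast enzyme and which, if any, the cytosolic one. None of the identifiers matched the RefSeq gene table at hand, and therefore no sequence or position is given.

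The values are read as FPKM (the sources name no unit for the table), that is fragments scaled by transcript length and by the number of mapped fragments of a library, so that levels can be compared between genes. The number of reads behind each value is unknown, and precision was taken from the spread over the 3 libraries of a genotype. Libraries summed to between 887628 and 1062588 FPKM, with the lowest sum in K326 replicate 1 and the highest in K326×GDH88 replicate 2. The spread between replicates was wider in K326×GDH88 (median SD over genes 0.152 on the log2 scale), K326 (0.135) and Va116×GDH94 (0.127) than in Va116 (0.0841), GDH88 (0.0808) and GDH94 (0.0772). Differences were tested with limma on log2(FPKM + 1) over all genes with a mean of at least 1 FPKM in a genotype of the fit, and a gene is called higher or lower when its Benjamini-Hochberg adjusted p is under 0.05, with no limit on the fold change. All 10 genes passed the filter on low values in both crosses. As a check of the tissue, the Rubisco small chain gene Nitab4.5_0001382g0020 stood between 8852 and 17682 FPKM in all 18 libraries, and the light-harvesting (Lhcb) gene Nitab4.5_0005511g0010 between 25.6 and 89.9 FPKM. A second Rubisco small chain gene, Nitab4.5_0002207g0050, was at 1.27 to 12.7 FPKM in Va116×GDH94 and at 1369 FPKM or more in every other library, and its part in the results below was not tested.

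The 10 genes spanned a range of levels over more than 2 orders of magnitude. The PRK gene Nitab4.5_0000543g0160 was the most abundant, with a mean of 1040 FPKM over the 18 libraries, and 0.205% of the genes tested had a higher mean. The SBP genes followed, Nitab4.5_0015171g0010 with 529 FPKM and Nitab4.5_0002100g0150 with 415 FPKM. Among the FBP genes, Nitab4.5_0002152g0090 had the highest mean (251 FPKM), followed by Nitab4.5_0000032g0010 (146 FPKM), Nitab4.5_0005926g0020 (143 FPKM) and Nitab4.5_0017865g0020 (89.0 FPKM). Lower levels were found for Nitab4.5_0000119g0310 (46.4 FPKM) and Nitab4.5_0002095g0090 (17.4 FPKM). Nitab4.5_0007025g0040 had the lowest mean, 4.86 FPKM. Between genotypes, the ratio of the highest to the lowest mean ran from 1.27-fold in FBP Nitab4.5_0000119g0310 to 2.49-fold in FBP Nitab4.5_0007025g0040.

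**Figure D1:**
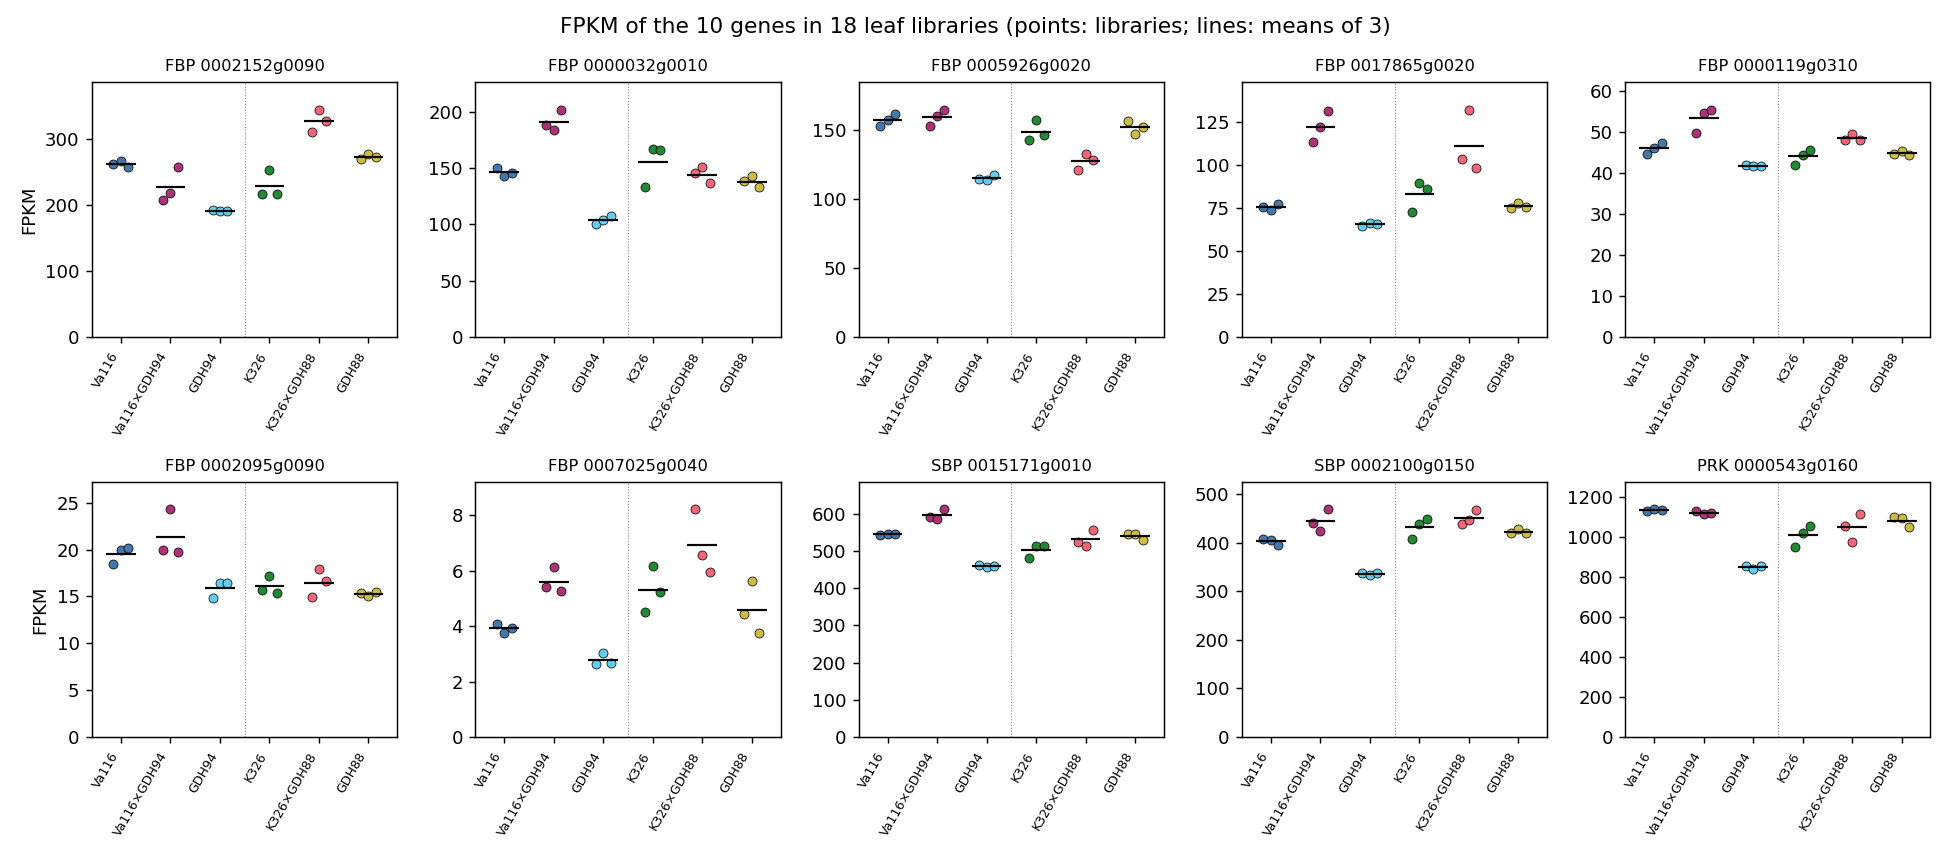
FPKM (y axis, starting at 0) of the 7 FBP, 2 SBP and 1 PRK genes in the 6 genotypes (x axis). Points are the 3 libraries of a genotype and lines their means. GDH94 holds the lowest mean in 9 of the 10 panels, and in 6 panels all libraries of Va116×GDH94 lie above those of both its parents.

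GDH94 was the genotype with the least transcript of these enzymes. Its mean was the lowest of the 6 genotypes for 9 of the 10 genes, the exception being FBP Nitab4.5_0002095g0090, which was lowest in GDH88. The libraries of Va116 and GDH94 also entered the choice of the genes, though not by the difference between these parents. The choice asked for values above GDH94 in the hybrid, so low values in GDH94 are no independent evidence. Of the 4 leaf marker genes looked up, 3 were also lower in GDH94 than in Va116, without overlap, and their part in the result was not tested. The Lhcb gene Nitab4.5_0005511g0010 was at 25.6 to 29.3 FPKM in GDH94, 46.3 to 48.3 FPKM in Va116 and 71.9 to 89.9 FPKM in Va116×GDH94, and the Lhcb gene Nitab4.5_0002814g0050 had means of 10.9, 17.5 and 72.4 FPKM. The Rubisco small chain gene Nitab4.5_0001382g0020 was at 9426 to 9557 FPKM in GDH94, 14468 to 14982 FPKM in Va116 and 8852 to 9404 FPKM in the hybrid, and the other one, Nitab4.5_0002207g0050, overlapped between the parents (1482 to 2770 FPKM in GDH94, 1369 to 1609 FPKM in Va116). For PRK, which forms the CO2 acceptor, the 3 libraries gave 854, 840.8 and 855 FPKM in GDH94, against 1127, 1137 and 1136 FPKM in the other parent of the cross, Va116. The groups lay far apart relative to their spread, and the difference was 0.41 ± 0.02 (SE, n = 3) on the log2 scale, 1.33-fold, with an adjusted p of 1.5e-06 in limma. SBP Nitab4.5_0015171g0010 was at 462, 457 and 459 FPKM in GDH94 and at 544, 545 and 545 FPKM in Va116 (log2 difference 0.25 ± 0.03, adjusted p = 0.0001 in limma). SBP Nitab4.5_0002100g0150 was at 337, 334 and 338 FPKM in GDH94 and at 407, 406 and 394 FPKM in Va116 (0.26 ± 0.04, adjusted p = 0.00059 in limma). Under quantile normalization of the libraries the differences shrank to 0.08 for PRK, which then lost its call (adjusted p = 0.056 in limma), to 0.09 for SBP Nitab4.5_0015171g0010 and to 0.19 for SBP Nitab4.5_0002100g0150.

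The largest difference between Va116 and GDH94 among the 10 genes was that of FBP Nitab4.5_0000032g0010, the gene described as a fructose-1,6-bisphosphatase. It was at 100.04, 104 and 108 FPKM in GDH94 and at 150, 143 and 145 FPKM in Va116, 0.49 ± 0.05 on the log2 scale (adjusted p = 4.1e-05 in limma). The difference was similar in FBP Nitab4.5_0002152g0090 (0.45 ± 0.07) and FBP Nitab4.5_0005926g0020 (0.44 ± 0.04), and smaller in FBP Nitab4.5_0007025g0040 (0.38 ± 0.08), FBP Nitab4.5_0002095g0090 (0.28 ± 0.08), FBP Nitab4.5_0017865g0020 (0.20 ± 0.05) and FBP Nitab4.5_0000119g0310 (0.14 ± 0.05). Altogether 10 of 10 genes were called higher in Va116 than in GDH94, where 13.0% of all genes tested were called higher and 31.4% lower, and the median log2 difference was 0.334 for the 10 genes and -0.127 for all genes tested. The call of FBP Nitab4.5_0000119g0310 (adjusted p = 0.049) was lost when any of 7 of the 9 libraries was left out (every one of Va116 and GDH94, and Va116×GDH94 replicate 2; adjusted p = 0.055 to 0.15). That of FBP Nitab4.5_0002095g0090 (adjusted p = 0.02) was lost without GDH94 replicate 1 (adjusted p = 0.077), Va116 replicate 2 (0.063) or Va116 replicate 3 (0.065).

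GDH94 was also below GDH88, the parent named second in the other cross. The GDH94 libraries entered the choice of the genes, which asked for values above GDH94 in Va116×GDH94. The comparison is therefore a description, and nothing is read from the shares. In one fit of all 18 libraries, 7 of 10 genes were called lower in GDH94 and 0 higher, beside 7.71% of all genes lower and 19.8% higher. These were PRK (-0.35 ± 0.05, adjusted p = 8.7e-05), SBP Nitab4.5_0002100g0150 (-0.33 ± 0.05), SBP Nitab4.5_0015171g0010 (-0.23 ± 0.04) and the FBP genes Nitab4.5_0007025g0040 (-0.56 ± 0.13), Nitab4.5_0002152g0090 (-0.51 ± 0.07), Nitab4.5_0000032g0010 (-0.41 ± 0.07) and Nitab4.5_0005926g0020 (-0.39 ± 0.05). FBP Nitab4.5_0002095g0090 was at 14.8 to 16.5 FPKM in GDH94 and 15.1 to 15.4 FPKM in GDH88, so these ranges overlapped. Under quantile normalization, PRK (-0.08, adjusted p = 0.42 in limma) and SBP Nitab4.5_0015171g0010 (-0.05, adjusted p = 0.5 in limma) lost their calls, and the other 5 were called under every scaling tried.

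Between K326 and GDH88, of the 10, 1 was called lower in K326 and 0 higher, against 8.52% and 6.56% of all genes, and at an unadjusted p under 0.05 the counts were also 1 and 0. The gene called was FBP Nitab4.5_0002152g0090, with 217, 252 and 216 FPKM in K326 and 269, 277 and 272 FPKM in GDH88 (-0.26 ± 0.08, adjusted p = 0.048 in limma). This call was lost without any of 7 of the 9 libraries, namely each of GDH88, K326 replicates 1 and 3 and K326×GDH88 replicates 1 and 3, and without K326 replicate 1 FBP Nitab4.5_0000032g0010 was called higher in K326 instead (adjusted p = 0.029).

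In the hybrid Va116×GDH94, the transcripts of 6 genes were above both parents, and in these 6 all hybrid libraries lay above all libraries of both parents. They were 4 FBP genes and both SBP genes. The strongest was FBP Nitab4.5_0017865g0020, at 113, 122 and 132 FPKM in the hybrid, 75.5, 74.1 and 77.2 FPKM in Va116 and 64.8, 66.2 and 65.95 FPKM in GDH94. It exceeded Va116 by 0.68 ± 0.05 on the log2 scale (1.61-fold) and GDH94 by 0.89 ± 0.05 (1.85-fold). FBP Nitab4.5_0000032g0010 was at 188, 184 and 202 FPKM in the hybrid, above Va116 by 0.38 ± 0.05 (1.30-fold) and above GDH94 by 0.87 ± 0.05 (1.83-fold). FBP Nitab4.5_0007025g0040, the gene of lowest level, was at 5.41, 6.14 and 5.26 FPKM in the hybrid, 4.08, 3.77 and 3.93 FPKM in Va116 and 2.63, 3.02 and 2.69 FPKM in GDH94, with differences of 0.42 ± 0.08 and 0.80 ± 0.08. FBP Nitab4.5_0000119g0310 was at 49.8, 54.6 and 55.4 FPKM, above Va116 by 0.21 ± 0.05 and above GDH94 by 0.34 ± 0.05.

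Both SBP genes exceeded the higher parent by less than these 4 FBP genes did, which was not tested. SBP Nitab4.5_0015171g0010 was at 591, 587 and 612 FPKM in Va116×GDH94, higher than Va116 by 0.13 ± 0.03 (1.09-fold) and higher than GDH94 by 0.38 ± 0.03 (1.30-fold). SBP Nitab4.5_0002100g0150 was at 441, 424 and 468 FPKM, higher than Va116 by 0.14 ± 0.04 (1.10-fold) and higher than GDH94 by 0.40 ± 0.04 (1.32-fold). PRK did not exceed Va116. Its hybrid libraries were at 1129, 1113 and 1119 FPKM, within and below the Va116 range of 1127 to 1137 FPKM, and above GDH94 by 0.40 ± 0.02 (1.32-fold). FBP Nitab4.5_0005926g0020 was at 153, 160 and 165 FPKM in the hybrid and 153, 157 and 162 FPKM in Va116, and FBP Nitab4.5_0002095g0090 at 19.99, 24.3 and 19.8 FPKM and 18.5, 19.99 and 20.1 FPKM. In both genes the ranges of the hybrid and of Va116 overlapped.

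The most abundant FBP gene moved the other way against Va116. FBP Nitab4.5_0002152g0090 was at 208, 217 and 257 FPKM in the hybrid, below the 262, 266 and 258 FPKM of Va116 by a log2 difference of -0.21 ± 0.07, and above the 192, 190 and 191 FPKM of GDH94 by 0.24 ± 0.07. The hybrid was thus between its parents for this gene, and replicate 3 of the hybrid reached almost to the Va116 range. The call against Va116 was lost when any library of Va116 or GDH94, or replicate 1 or 2 of the hybrid, was left out, with adjusted p up to 0.10, and it was kept without replicate 3. In all, 6 of 10 genes were called higher and 1 lower against Va116, beside 24.3% and 11.7% of all genes, and 10 were called higher and 0 lower against GDH94, beside 22.1% and 29.0%. Above both parents were 6 and below both 0, beside 13.1% and 7.89% of all genes by the calls, and 16.2% of all genes lay above both parents without overlap. The genes were chosen on these libraries for this pattern, so nothing is read from these shares. Of the 10, 4 did not pass as above both parents with the test used here, namely PRK and the FBP genes Nitab4.5_0002152g0090, Nitab4.5_0002095g0090 and Nitab4.5_0005926g0020. The study called differences by DESeq2 at p under 0.05 with an absolute log2 fold change of at least 2, a limit not applied here. In log2(FPKM + 1), the largest difference of the 10 genes from a parent in this hybrid was 0.885, against GDH94. None of the 6 genes would pass a limit of 2 on this scale. The call of SBP Nitab4.5_0002100g0150 against Va116 was lost without Va116 replicate 3 (5 genes then remained above both parents).

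The hybrid K326×GDH88 had no part in the choice of the genes. There, 2 of 10 were called above both parents and 1 below both, beside 4.24% and 9.01% of all genes tested, and all 3 were FBP genes. FBP Nitab4.5_0002152g0090, which was intermediate in the first hybrid, was at 310, 344 and 325.9 FPKM in K326×GDH88, 217, 252 and 216 FPKM in K326 and 269, 277 and 272 FPKM in GDH88. All hybrid libraries were above all libraries of both parents, by 0.52 ± 0.08 over K326 (1.43-fold, adjusted p = 0.0017 in limma) and 0.26 ± 0.08 over GDH88 (1.197-fold, adjusted p = 0.025 in limma). FBP Nitab4.5_0017865g0020 was at 104, 132 and 98.5 FPKM in the hybrid, 73.1, 89.7 and 86.5 FPKM in K326 and 74.9, 77.8 and 75.5 FPKM in GDH88. The difference was 0.41 ± 0.11 from K326 (1.33-fold, adjusted p = 0.025 in limma) and 0.53 ± 0.11 from GDH88 (1.45-fold, adjusted p = 0.006 in limma). This gene was therefore above both parents in both hybrids. FBP Nitab4.5_0005926g0020 was the gene below both parents, at 121, 133 and 129 FPKM in the hybrid, 143, 157 and 147 FPKM in K326 and 157, 147 and 152 FPKM in GDH88, with log2 differences of -0.22 ± 0.07 (adjusted p = 0.04 in limma) and -0.25 ± 0.07 (adjusted p = 0.017 in limma). Its libraries did not overlap those of either parent.

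Several of these calls were lost when a library was left out, in some cases any of several libraries. That of FBP Nitab4.5_0017865g0020 over K326 was lost without K326 replicate 1 (adjusted p = 0.091), the library with the lowest FPKM sum, or without K326×GDH88 replicate 2 (adjusted p = 0.053), the library with the highest. That of FBP Nitab4.5_0002152g0090 over GDH88 was lost without any library of GDH88 (adjusted p = 0.065 to 0.084) or without K326×GDH88 replicate 2 (adjusted p = 0.061). With K326×GDH88 replicate 2 left out, 0 genes were called above both parents, and with GDH88 replicate 1, 2 or 3 or K326 replicate 1 left out, 1 was. The call of FBP Nitab4.5_0005926g0020 below K326 was lost without any of 7 of the 9 libraries (each of GDH88, K326 replicates 2 and 3, K326×GDH88 replicates 1 and 3; adjusted p = 0.054 to 0.11), and 0 genes were then below both parents. Its directions were the same in all of these fits.

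The other genes were mostly not called in K326×GDH88. FBP Nitab4.5_0007025g0040 was at 8.22, 6.58 and 5.95 FPKM in the hybrid and 4.44, 5.62 and 3.75 FPKM in GDH88, 0.50 ± 0.15 higher (1.42-fold, adjusted p = 0.026 in limma), and at 4.52, 6.16 and 5.23 FPKM in K326, which overlapped with the hybrid. This call was lost without GDH88 replicate 1 (adjusted p = 0.073), GDH88 replicate 3 (0.099) or K326×GDH88 replicate 1 (0.093). FBP Nitab4.5_0000119g0310 was at 48.1, 49.6 and 48.1 FPKM, above every library of K326 (42.0 to 45.6 FPKM) and GDH88 (44.4 to 45.3 FPKM), and was called against neither (adjusted p = 0.13 and 0.17 in limma). With it, 3 genes lay above both parents without overlap and 1 below, beside 7.23% and 16.8% of all genes. FBP Nitab4.5_0000032g0010, which stood high in the first hybrid, was at 145, 151 and 136 FPKM here, inside the range of K326 (133 to 167 FPKM). SBP Nitab4.5_0015171g0010 (525, 514 and 557 FPKM), SBP Nitab4.5_0002100g0150 (439, 446 and 468 FPKM) and PRK (1056, 974 and 1114 FPKM) overlapped with K326 or GDH88 or both and were not called. Over the 10 genes, 2 were called higher and 1 lower against K326 (beside 9.49% and 14.1% of all genes), and 3 higher and 1 lower against GDH88 (beside 10.5% and 25.1%). The median log2 difference of the 10 genes was 0.0737 against K326 and 0.0954 against GDH88, where all genes tested had medians of -0.0853 and -0.123.

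The mid-parent value is the average of both parents, taken here in log2(FPKM + 1). By this measure, 9 of 10 genes were called above the mid-parent value in Va116×GDH94 and 0 below, beside 24.7% and 21.4% of all genes, from which, as above, nothing is read. The deviation was 0.78 ± 0.05 in FBP Nitab4.5_0017865g0020, 0.63 ± 0.04 in FBP Nitab4.5_0000032g0010 and 0.61 ± 0.07 in FBP Nitab4.5_0007025g0040. It was between 0.19 and 0.27 in the other 6 called, with PRK at 0.19 ± 0.02, SBP Nitab4.5_0015171g0010 at 0.25 ± 0.02 and SBP Nitab4.5_0002100g0150 at 0.27 ± 0.03. The gene not called was FBP Nitab4.5_0002152g0090. The call of FBP Nitab4.5_0002095g0090 (0.26 ± 0.07) was lost without Va116×GDH94 replicate 2 (adjusted p = 0.055). In K326×GDH88, 3 genes were above the mid-parent value and 1 below, beside 10.9% and 23.8% of all genes. Above were FBP Nitab4.5_0017865g0020 (0.47 ± 0.10, adjusted p = 0.006), FBP Nitab4.5_0007025g0040 (0.41 ± 0.13, adjusted p = 0.032) and FBP Nitab4.5_0002152g0090 (0.39 ± 0.07, adjusted p = 0.0029), and below was FBP Nitab4.5_0005926g0020 (-0.24 ± 0.06, adjusted p = 0.013), all in limma. The call of FBP Nitab4.5_0007025g0040 was lost when any of 6 libraries was left out (K326×GDH88 replicates 1 and 2, K326 replicates 1 and 3, GDH88 replicates 1 and 3; adjusted p = 0.054 to 0.14). That of FBP Nitab4.5_0005926g0020 was lost without K326×GDH88 replicate 1 (adjusted p = 0.052).

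**Figure D2:**
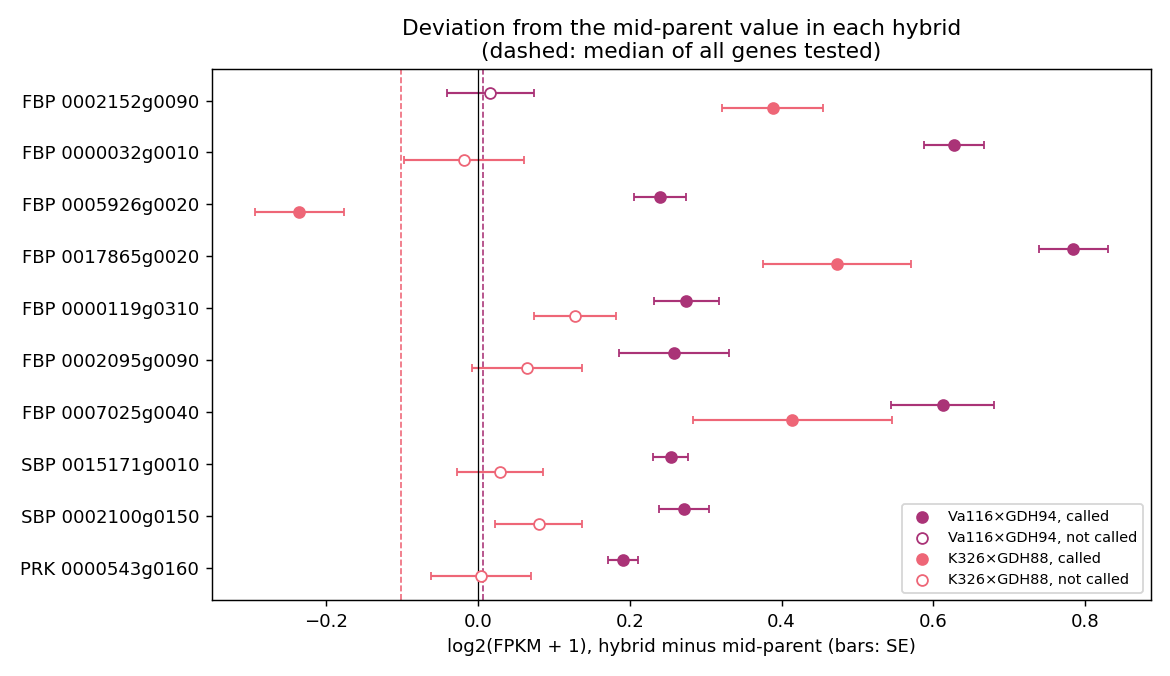
Deviation of each hybrid from its mid-parent value in log2(FPKM + 1) (x axis) for the 10 genes (y axis), with bars of 1 SE. Filled points were called and open points were not, and the dashed lines are the medians of all genes tested (0.01 in Va116×GDH94, -0.10 in K326×GDH88). FBP Nitab4.5_0002152g0090 is called only in K326×GDH88, FBP Nitab4.5_0005926g0020 lies on opposite sides of 0, and PRK and both SBP genes are called only in Va116×GDH94.

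Whether the 2 deviations differed was tested with an interaction term in the fit of all 18 libraries. One side of it holds the libraries on which the genes were chosen, and that choice favours a higher deviation in Va116×GDH94. Nothing is therefore read from the counts and shares that follow, and the p-values of genes higher in Va116×GDH94 are a description. Counted with its sign, the deviation was higher in Va116×GDH94 in 6 of the 10 genes and lower in 1, beside 22.6% and 9.66% of all genes tested. A higher value need not be a deviation of larger size: FBP Nitab4.5_0005926g0020 was at 0.24 in Va116×GDH94 and -0.24 in K326×GDH88. The largest difference was that of FBP Nitab4.5_0000032g0010 (0.65 ± 0.09, adjusted p = 6.2e-05), followed by FBP Nitab4.5_0005926g0020 (0.48 ± 0.06, adjusted p = 3.8e-05) and FBP Nitab4.5_0017865g0020 (0.31 ± 0.11, adjusted p = 0.046). The deviation of SBP Nitab4.5_0015171g0010 differed by 0.22 ± 0.05 (adjusted p = 0.0039), that of SBP Nitab4.5_0002100g0150 by 0.19 ± 0.06 (adjusted p = 0.02) and that of PRK by 0.19 ± 0.06 (adjusted p = 0.03), all in limma. The gene on the other side was FBP Nitab4.5_0002152g0090 (-0.37 ± 0.09, adjusted p = 0.0044 in limma). The median of all genes tested was 0.117 in the same direction. The call of FBP Nitab4.5_0017865g0020 was lost in 15 of 18 fits with a library left out (adjusted p up to 0.13), all but those without K326 replicate 1, K326×GDH88 replicate 2 or Va116×GDH94 replicate 1, and that of PRK in 5 of 18 (GDH94 replicate 2, GDH88 replicate 1, K326×GDH88 replicate 2, Va116×GDH94 replicates 1 and 2; up to 0.071), and SBP Nitab4.5_0002100g0150 lost its call without Va116×GDH94 replicate 3 (adjusted p = 0.062). Those of FBP Nitab4.5_0000032g0010, FBP Nitab4.5_0005926g0020, FBP Nitab4.5_0002152g0090 and SBP Nitab4.5_0015171g0010 were kept in all 18.

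The mixture of FBP transcripts differed between the 2 hybrids. A share within a library does not depend on a factor that scales the whole library, and the shares are given with no test, since 3 libraries against 3 cannot give a p below 0.10 in an exact permutation test. FBP Nitab4.5_0002152g0090 made up 28.2%, 28.3% and 30.7% of the summed FPKM of the 7 FBP genes in Va116×GDH94, less than in any library of Va116 (36.1% to 37.4%) or GDH94 (35.2% to 36.2%). In K326×GDH88 it made up 41.3%, 41.2% and 42.9%, more than in any library of K326 (31.7% to 34.5%) or GDH88 (38.2% to 39.1%). The share of this gene thus left the range of both parents in opposite directions in the hybrids.

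FBP Nitab4.5_0000032g0010 took a share of 25.5%, 23.9% and 24.2% in Va116×GDH94, above Va116 (20.2% to 21.2%) and GDH94 (18.8% to 19.8%), and of 19.3%, 18.1% and 18.0% in K326×GDH88, where K326 had 21.2% to 24.3% and GDH88 19.1% to 20.1%. FBP Nitab4.5_0005926g0020 held between 19.8% and 22.7% in every library outside K326×GDH88 and 16.15%, 15.96% and 16.91% within it. FBP Nitab4.5_0017865g0020 had a share above those of both parents in either hybrid, with 15.4%, 15.9% and 15.8% in Va116×GDH94 (parents 10.4% to 12.4%) and 13.8%, 15.9% and 13.0% in K326×GDH88 (parents 10.7% to 12.7%). The 3 remaining genes had shares of 0.495% to 1.09% (FBP Nitab4.5_0007025g0040), 1.98% to 3.16% (FBP Nitab4.5_0002095g0090) and 5.95% to 7.89% (FBP Nitab4.5_0000119g0310). Near-identical copies, which allotetraploid tobacco carries, share reads that RSEM divides among them, and how far this division enters the shares was not tested.

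**Figure D3:**
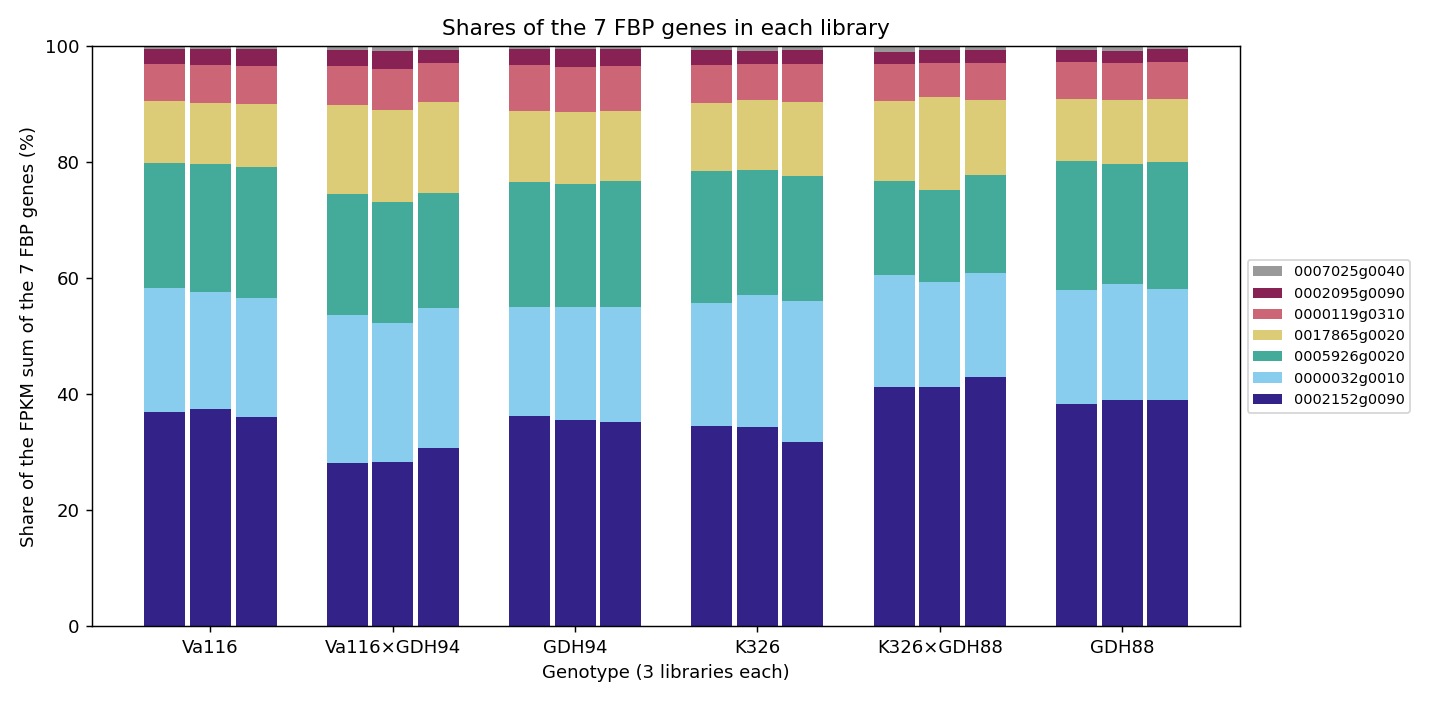
Share of each of the 7 FBP genes in their summed FPKM (y axis, %) in each of the 18 libraries, grouped by genotype (x axis). The lowest segment, FBP Nitab4.5_0002152g0090, is shortest in Va116×GDH94 (28.2% to 30.7%) and tallest in K326×GDH88 (41.2% to 42.9%).

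The summed FPKM of the FBP genes overlapped between the hybrids, at 737 to 835 in Va116×GDH94 and 752 to 834 in K326×GDH88. It was 708 to 713 in Va116, 531 to 544 in GDH94, 628 to 734 in K326 and 696 to 710 in GDH88. As deposited, both hybrids thus lay above all libraries of their parents. The FPKM totals of the hybrid libraries were also larger than those of their parents. In K326×GDH88 these totals were 972830 to 1062588, against 887628 to 936804 in K326 and 941930 to 946270 in GDH88. Relative to the library totals, the hybrids did not stay apart from all parent libraries. Va116×GDH94 replicate 1 (737 of 990886) fell below Va116 (708 of 945893, 710 of 952261 and 713 of 953051). K326 replicate 2 (734 of 936804) lay above K326×GDH88 replicates 1 (752 of 972830) and 3 (760 of 1007764). The ratio of FBP Nitab4.5_0002152g0090 to FBP Nitab4.5_0000032g0010 was 1.11 to 1.27 in Va116×GDH94, below 1.74 to 1.85 in Va116 and 1.78 to 1.92 in GDH94, and 2.13 to 2.39 in K326×GDH88, above 1.30 to 1.63 in K326 and 1.94 to 2.04 in GDH88.

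The 2 SBP genes kept a nearly fixed ratio within the first cross. SBP Nitab4.5_0015171g0010 stood to SBP Nitab4.5_0002100g0150 as 1.35 ± 0.02 (SD, n = 3) in Va116, 1.37 ± 0.01 in GDH94 and 1.34 ± 0.04 in Va116×GDH94, and the hybrid's range of 1.31 to 1.39 covered both parents. In the second cross the ratio was 1.17 ± 0.02 in K326, 1.28 ± 0.02 in GDH88 and 1.18 ± 0.02 in K326×GDH88. There the hybrid's range of 1.152 to 1.196 overlapped with that of K326 (1.14 to 1.19) and not with that of GDH88 (1.26 to 1.30). All libraries of the first cross were above all libraries of the second in this ratio. The ratio of PRK to the SBP sum was 1.197 ± 0.01 in Va116 (1.19 to 1.21), higher than in every library of the other 5 genotypes, which ran from 1.015 to 1.141. In Va116×GDH94 it was 1.08 ± 0.04, which covered the range of GDH94 (1.07 ± 0.01).

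**Figure D4:**
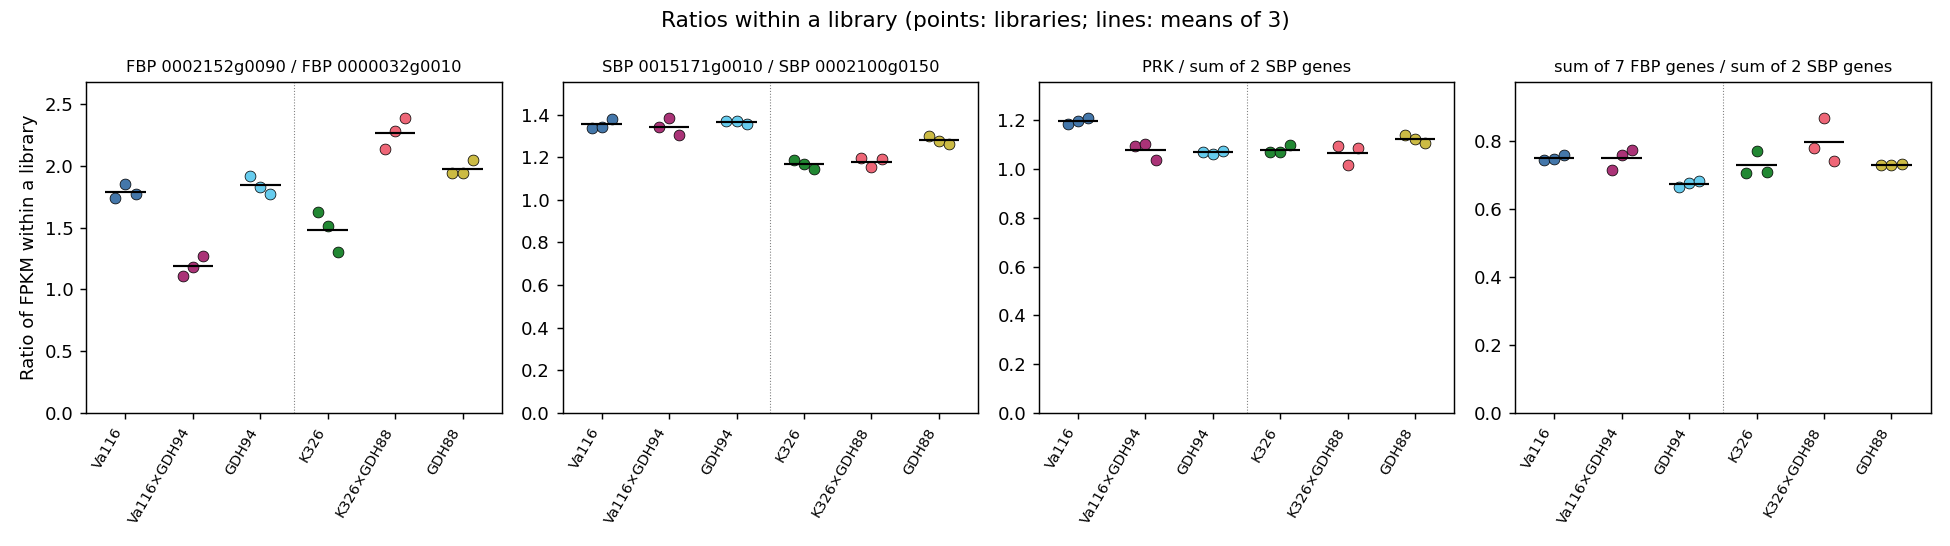
Ratios of FPKM within a library (y axes, starting at 0) in the 6 genotypes (x axes), with points for the 3 libraries and lines for their means. From left to right: 2 FBP genes (1.11 to 1.27 in Va116×GDH94, 2.13 to 2.39 in K326×GDH88), the 2 SBP genes, PRK to the SBP sum (highest in Va116, 1.19 to 1.21), and the FBP sum to the SBP sum (lowest in GDH94, 0.67 to 0.68).

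Placed in order of their means, neighbouring genotypes had non-overlapping libraries in 21 of the 50 neighbouring pairs over the 10 genes. The order was clearest for FBP Nitab4.5_0002152g0090, with 4 of 5 neighbours apart: K326×GDH88 was highest, then GDH88, Va116, K326 with Va116×GDH94, and GDH94. It was least clear for FBP Nitab4.5_0007025g0040, where GDH94 alone was set off from the rest, and for FBP Nitab4.5_0002095g0090, where Va116×GDH94 and Va116 overlapped with each other and lay above the other 4. The highest mean was in Va116×GDH94 for 6 genes (FBP Nitab4.5_0000119g0310, Nitab4.5_0002095g0090, Nitab4.5_0005926g0020, Nitab4.5_0000032g0010 and Nitab4.5_0017865g0020 and SBP Nitab4.5_0015171g0010), in K326×GDH88 for 3 (FBP Nitab4.5_0002152g0090 and Nitab4.5_0007025g0040 and SBP Nitab4.5_0002100g0150) and in Va116 for PRK. Compared directly, the hybrids differed in 6 genes as deposited. FBP Nitab4.5_0000032g0010 (0.40 ± 0.07), FBP Nitab4.5_0002095g0090 (0.35 ± 0.08), FBP Nitab4.5_0005926g0020 (0.32 ± 0.05), SBP Nitab4.5_0015171g0010 (0.17 ± 0.04) and FBP Nitab4.5_0000119g0310 (0.13 ± 0.05) were called higher in Va116×GDH94 and FBP Nitab4.5_0002152g0090 lower (-0.53 ± 0.07, adjusted p = 2.5e-05 in limma), 5 and 1 genes beside 38.6% and 10.2% of all genes. The median of all genes was 0.183 in this contrast, and SBP Nitab4.5_0015171g0010 and FBP Nitab4.5_0000119g0310 stood below it. Under median-ratio scaling, 0 genes were called higher and 3 lower. The differences were then 0.18 in FBP Nitab4.5_0000032g0010 (adjusted p = 0.15), 0.14 in FBP Nitab4.5_0002095g0090 (adjusted p = 0.22) and 0.10 in FBP Nitab4.5_0005926g0020 (adjusted p = 0.27), and SBP Nitab4.5_0015171g0010 (-0.06) and FBP Nitab4.5_0000119g0310 (-0.09) changed sign. The 3 lower were FBP Nitab4.5_0002152g0090, FBP Nitab4.5_0007025g0040 and SBP Nitab4.5_0002100g0150. The call of FBP Nitab4.5_0000119g0310 was also lost in 13 of 18 fits with a library left out (adjusted p up to 0.15 in limma), and was kept only without a library of K326, K326×GDH88 replicate 2 or Va116×GDH94 replicate 1. Without K326×GDH88 replicate 3, FBP Nitab4.5_0007025g0040 was also called lower, which makes 2.

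Va116 against K326 gave 4 genes called higher and 1 lower, beside 18.1% and 13.4% of all genes. Higher in Va116 were FBP Nitab4.5_0002095g0090 (0.27 ± 0.08, adjusted p = 0.02), PRK (0.17 ± 0.05, adjusted p = 0.017), FBP Nitab4.5_0002152g0090 (0.20 ± 0.07, adjusted p = 0.045) and SBP Nitab4.5_0015171g0010 (0.12 ± 0.04, adjusted p = 0.049), and lower was FBP Nitab4.5_0007025g0040 (-0.35 ± 0.13, adjusted p = 0.045), all in limma. Of these calls, none was kept under all scalings. Without K326 replicate 1, Va116 replicate 2 or Va116 replicate 3, 0 genes were called higher, and without K326 replicate 3, 1 was. Without any single library of GDH88 or GDH94, or Va116 replicate 1, 2 were called higher. The lower call was lost without any library of Va116 or GDH94, K326 replicate 2 or 3, GDH88 replicate 1 or Va116×GDH94 replicate 1, while 3 genes were called lower without K326 replicate 1.

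How the libraries are scaled decided some of the smaller differences. As deposited, the FPKM of Va116×GDH94 sum to more than those of its parents (984296 to 1014325, against 945893 to 953051 in Va116 and 910305 to 914581 in GDH94). Over the 12 contrasts, the share of higher among all called genes ran from 29.2% to 79.1% as deposited, 45.4% to 56.9% under median-ratio scaling, 44.4% to 55.3% under quantile normalization and 15.8% to 80.8% with equal totals. In the values as deposited and under each of 3 other scalings (median ratio, quantile normalization and equal totals), 3 genes were called higher in Va116×GDH94 than in Va116, namely FBP Nitab4.5_0017865g0020 (0.60 to 0.68), FBP Nitab4.5_0000032g0010 (0.30 to 0.38) and FBP Nitab4.5_0007025g0040, and FBP Nitab4.5_0002152g0090 was called lower (-0.29 to -0.21). Both SBP genes lost their calls against Va116 under all 3 (adjusted p = 0.062 to 0.78 in limma). PRK was called lower than in Va116 under median-ratio scaling (adjusted p = 0.038) and equal totals (adjusted p = 0.019). Against GDH94, 8 of 10 genes kept their calls under all 4, and the exceptions were FBP Nitab4.5_0002152g0090 (equal totals, adjusted p = 0.13) and PRK, whose difference was lost under quantile normalization (-0.004). Of the differences between the mid-parent deviations, those of FBP Nitab4.5_0000032g0010, FBP Nitab4.5_0005926g0020 and FBP Nitab4.5_0002152g0090 were called under all 4. Median-ratio scaling took the calls of the other 4, FBP Nitab4.5_0017865g0020 (0.18, adjusted p = 0.37), SBP Nitab4.5_0015171g0010 (0.09, adjusted p = 0.35), SBP Nitab4.5_0002100g0150 (0.06, adjusted p = 0.6) and PRK (0.06, adjusted p = 0.63 in limma). Between the parents, 7 of the 10 genes were called higher in Va116 than in GDH94 under all 4, the exceptions being PRK (quantile normalization, above) and, with equal totals, FBP Nitab4.5_0000119g0310 (adjusted p = 0.2) and FBP Nitab4.5_0002095g0090 (adjusted p = 0.055). In K326×GDH88, FBP Nitab4.5_0017865g0020 over GDH88 and FBP Nitab4.5_0002152g0090 over K326 were called under all 4, and FBP Nitab4.5_0005926g0020 against either parent and FBP Nitab4.5_0017865g0020 over K326 under 3 of 4. FBP Nitab4.5_0002152g0090 over GDH88 was called under 2 of 4.

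**Figure D5:**
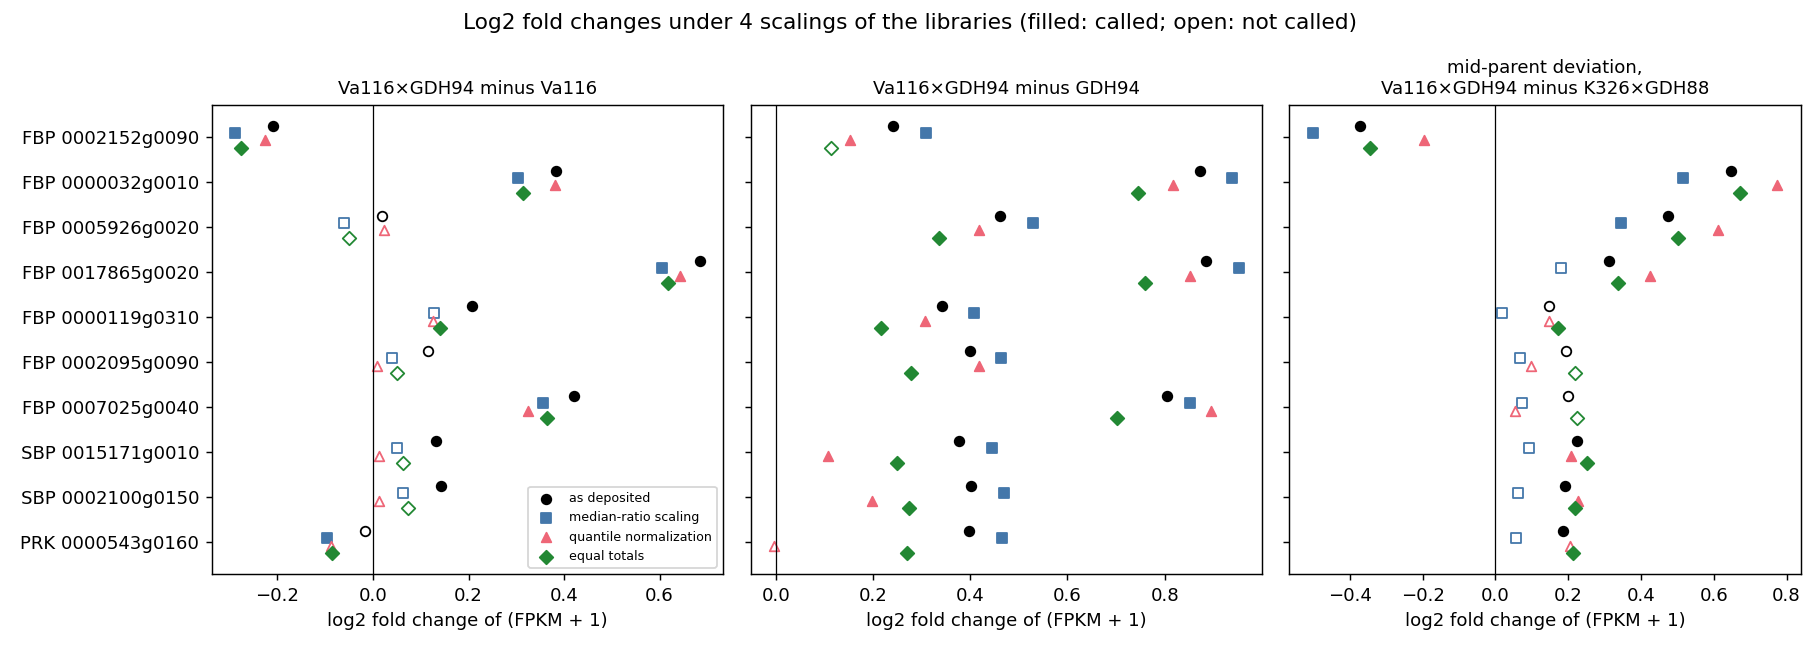
Log2 fold changes of FPKM + 1 (x axes) of the 10 genes (y axis) with the libraries as deposited and under 3 other scalings, for Va116×GDH94 against Va116, against GDH94, and for the difference of the mid-parent deviations between the hybrids. Filled symbols were called. FBP Nitab4.5_0017865g0020 stays between 0.60 and 0.68 against Va116, while the SBP genes are called there only as deposited.

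The same heat map lists 20 further genes of carbon fixation, under aldolase (ALDO), triose phosphate isomerase (TPI), ribose 5-phosphate isomerase (rpiA), the Rubisco large chain (rbcl) and glyceraldehyde 3-phosphate dehydrogenase (GADPH, GAPA). They were chosen by the study in the same way. In Va116×GDH94, 9 of 20 were called higher and 2 lower against Va116 and 13 higher and 3 lower against GDH94, and 8 were above both parents. The largest of these differences were those of the rbcl genes Nitab4.5_0002755g0110, with a mean of 42.3 FPKM in the hybrid, 10.5 FPKM in Va116 and 11.6 FPKM in GDH94, and Nitab4.5_0000007g0300, with 17.3, 3.92 and 3.59 FPKM. In log2(FPKM + 1), none of the 10 bisphosphatase and kinase genes reached a log2 fold change of 1 in any contrast. Of the 20, 5 did so against Va116 and 5 against GDH94 in this hybrid. All were rbcl genes, though not the same 5 against both parents. Outside rbcl, the largest difference of the 20 from a parent in this hybrid was 0.637. The added 1 lowers the fold changes of low genes. FBP Nitab4.5_0007025g0040, for one, had means of 5.60 FPKM in Va116×GDH94 and 2.78 FPKM in GDH94. In K326×GDH88, 5 of 20 were called higher and 2 lower against K326 and 4 higher and 2 lower against GDH88, 2 were above both parents and 1 below both. The rpiA gene Nitab4.5_0000414g0100, 1 of the 2 above both, had means of 28.9 FPKM in the hybrid, 18.0 FPKM in K326 and 15.05 FPKM in GDH88. TPI Nitab4.5_0002836g0060, at 11.5 FPKM in the hybrid, was called higher than GDH88 (7.73 FPKM) and not called against K326 (9.10 FPKM). The largest called change against K326 was downward, in rbcl Nitab4.5_0002553g0010 (1.60 against 6.79 FPKM, log2 difference -1.67). The call of this rbcl gene was lost in 7 of 17 refits. Between the parents Va116 and GDH94, 7 of 20 were called higher and 3 lower in Va116, where all 10 bisphosphatase and kinase genes were higher. The 3 lower ones were the GADPH genes.

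Across the 18 libraries, the 45 pairs among the 10 genes had Pearson correlations of log2(FPKM + 1) from -0.042 to 0.909, with a median of 0.637 and 1 negative value. The highest was that of SBP Nitab4.5_0015171g0010 with PRK. These values are a description, since the libraries share genotypes and the genes were chosen together. By the same measure over 36572 genes, the gene most like PRK was the aldolase gene Nitab4.5_0001317g0050 (r = 0.97), followed by Nitab4.5_0002738g0040 (r = 0.97) and Nitab4.5_0001526g0050 (r = 0.95). Most like SBP Nitab4.5_0015171g0010 were Nitab4.5_0003274g0090 (r = 0.98), Nitab4.5_0027240g0010 (r = 0.97) and Nitab4.5_0010547g0050 (r = 0.96). Most like FBP Nitab4.5_0002152g0090 were Nitab4.5_0007524g0020, Nitab4.5_0000588g0170 and Nitab4.5_0001287g0150 (r = 0.94 to 0.95), of which Nitab4.5_0001287g0150 had means of 789 FPKM in K326×GDH88 and 348 FPKM in GDH94. Apart from the aldolase gene, these genes are in none of the lists used here.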

How the data were processed

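Leaf RNA of 6 tobacco genotypes was sequenced in 18 libraries, 3 biological replicates each. After trimming, the authors mapped reads with HISAT2 to a K326 assembly and estimated expression with RSEM, and the submitters' processing notes also name StringTie; versions are not given in the sources used here. The deposited table holds 1 FPKM value per gene and library to 2 decimals for 69500 genes. No source names the unit of the table, which was inferred from RSEM and from library sums that differ. FPKM hold no read counts, so the number of reads per gene is not given and no counting interval was computed. The study's supplement gives read totals for the 9 libraries of the Va116×GDH94 cross, which were not used here.

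Values were tested as log2(FPKM + 1) by a two-sided moderated linear model (limma 3.58.1, R 4.3.3, eBayes with trend), fitted to the 9 libraries of each cross, or to all 18 for contrasts across crosses, over genes with a mean of at least 1 FPKM in a genotype of the fit (36068, 35438 and 36573 genes). Fold changes on this scale understate changes of low genes. Calls had a Benjamini-Hochberg adjusted p under 0.05. Neighbours in the order of levels were compared by their ranges with no test, because the genes had been chosen on part of these libraries. Shares and ratios used Python 3.11.15, NumPy 2.4.6, pandas 2.3.3 and matplotlib 3.10.9. The procedure was tested on simulated data. Named genes were all 10 members, of the 20 other carbon fixation genes at most 2 per contrast with the largest called change, and the 3 genes most correlated with the most abundant FBP and SBP genes and with PRK. The members and lists were chosen with earlier results of these data known. Gene names come from the study's heat map, read from its image, and 0 of the 69500 identifiers matched the RefSeq gene table. The replicates are numbered 1 to 3 in the labels; same-numbered libraries did not deviate together, so the replicate block is an alternative only. Alternatives were the pseudocount (0.1), no filter, 3 scalings, the block, other sets of libraries in the fit, a fold limit and each library left out.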

Additional observations from a re-analysis of the deposited data

Results flagged for a closer look

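The deviation from the mid-parent value differed between the hybrids, by the interaction term of limma over 18 libraries, in 7 of the 10 genes, here given as Va116×GDH94 minus K326×GDH88 on the log2 scale. Counted with its sign, it was higher in Va116×GDH94 in 6 and lower in 1, beside 22.6% and 9.66% of all genes tested, whose median was 0.117. The differences were 0.65 in FBP Nitab4.5_0000032g0010, 0.48 in FBP Nitab4.5_0005926g0020, 0.31 in FBP Nitab4.5_0017865g0020, 0.22 in SBP Nitab4.5_0015171g0010, 0.19 in SBP Nitab4.5_0002100g0150, 0.19 in PRK and -0.37 in FBP Nitab4.5_0002152g0090. Under median-ratio scaling the values of FBP Nitab4.5_0017865g0020 (0.18), SBP Nitab4.5_0015171g0010 (0.09), SBP Nitab4.5_0002100g0150 (0.06) and PRK (0.06) were no longer called. With a library left out, the call of FBP Nitab4.5_0017865g0020 was lost in 15 of 18 fits, that of PRK in 5 and that of SBP Nitab4.5_0002100g0150 in 1. Va116×GDH94 is the hybrid on whose libraries the study chose the genes. That choice favours a higher deviation there, so nothing is read from these counts and shares. FBP Nitab4.5_0002152g0090 and FBP Nitab4.5_0005926g0020 lay outside the range of the parents in K326×GDH88 and within it or at its edge in Va116×GDH94: the first was above both parents in K326×GDH88 and between them in Va116×GDH94, and the second was below both parents in K326×GDH88 and at the level of Va116 in Va116×GDH94.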

How the results depend on the processing

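Of the 73 called gene values, 754 of 882 refits with a library left out and 455 of 521 other refits kept direction and call, 128 and 62 lost the call, and 4 reversed: PRK under quantile normalization against GDH94 (-0.004158) and the mid-parent value (-0.04572) in Va116×GDH94, and FBP Nitab4.5_0000119g0310 (-0.09072) and SBP Nitab4.5_0015171g0010 (-0.05825) between the hybrids under median-ratio scaling. The causes were not tested.

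With an absolute log2 fold change of FPKM + 1 of at least 1 required, every count of members was 0. With no filter, 0 genes were lower in Va116×GDH94 than in Va116, 0 lower in K326 than in GDH88, and 2 higher and 0 lower in Va116 than in K326. Under median-ratio scaling, 3 genes were above both parents in Va116×GDH94 and 3 higher and 2 lower than in Va116. Under it 0 were below both parents, K326, GDH88 or the mid-parent value in K326×GDH88, and 0 lower in K326 than in GDH88. It also gave 2 genes with a higher mid-parent deviation in Va116×GDH94, 0 higher and 3 lower in Va116×GDH94 than in K326×GDH88, and 0 higher in Va116 than in K326. Under quantile normalization, 3 genes were above both parents in Va116×GDH94 and 3 higher than in Va116, and 0 above both parents in K326×GDH88. There 1 was higher and 2 lower than in K326, 3 lower than in GDH88 and 2 lower than the mid-parent value, 1 was higher in K326 than in GDH88, 2 higher and 2 lower in Va116 than in K326, and 2 lower in Va116×GDH94 than in K326×GDH88. Under equal totals, 2 genes were lower in Va116×GDH94 than in Va116. In K326×GDH88, 1 was above both parents, 2 lower than in K326 and 1 higher than in GDH88, and in Va116 1 was higher and 2 lower than in K326. With only 2 genotypes in the fit, 0 were lower in Va116×GDH94 than in Va116, and in K326×GDH88 1 was above and 0 below both parents, and 1 higher and 0 lower than in K326.

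With a library left out, the counts ranged as follows. Above both parents were 5 to 6 genes in Va116×GDH94 and 0 to 2 in K326×GDH88, and below both 0 to 1 in K326×GDH88. Against Va116, Va116×GDH94 had 5 to 6 higher and 0 to 1 lower, against GDH94 10 to 10 higher and against the mid-parent value 8 to 9 higher. K326×GDH88 had 1 to 2 higher and 0 to 1 lower against K326, 1 to 3 and 0 to 1 against GDH88, and 2 to 3 and 0 to 1 against the mid-parent value. Va116 had 8 to 10 higher against GDH94 and 0 to 4 higher and 0 to 3 lower against K326, K326 had 0 to 1 higher and 0 to 1 lower against GDH88, and GDH94 had 7 to 8 lower than GDH88. Between the hybrids, 4 to 6 were higher and 1 to 2 lower, and 4 to 7 mid-parent deviations were higher and 1 to 1 lower in Va116×GDH94.

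With the replicate number as a block, 0 genes were below both parents and 0 lower than K326 in K326×GDH88, and 3 of 73 calls were lost. The pairing was not supported: the 18 correlations of same-numbered deviations ran from -0.034 to 0.224, with 1 above 0.1.

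Among all genes, the share of calls in the higher direction moved from 67.4% to 51.7% (median ratio), 47.7% (quantile) and 55.1% (equal totals) for Va116×GDH94 against Va116, from 43.3% to 28.4% (equal totals) against GDH94, from 29.2% to 51.2% (median ratio) for Va116 against GDH94, and from 29.6% to 53.8% (median ratio) for K326×GDH88 against GDH88. Median-ratio scaling shifted the median of all genes by 0.125 for Va116 against GDH94, 0.133 for K326×GDH88 against GDH88, -0.107 for the difference of the mid-parent deviations and -0.182 between the hybrids. Depth per gene is unknown, so the spread of 3 libraries limits what can be called.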
